A study of Canis lupus familiaris with 4 samples.

Results

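The integrin chains of T cells were followed at the messenger RNA level in cultured canine CD8+ T cells. The set held 10 listed chains (ITGAL, ITGAX, ITGB2, ITGA4, ITGAE, ITGB7, ITGA1, ITGB1, ITGAV and ITGB3), taken by gene symbol from 11691 genes that had a row in both deposited tables. All 10 chains had a row, 8 of them on a row of their own and 2 on a row shared with other genes. ITGAX shared its row with ITGAM and ITGAD, and ITGA1 shared its row with PELO, so the values of these rows cannot be given to a single gene.

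Integrins are cell surface receptors made of 1 alpha and 1 beta chain. T cells use them to hold on to target cells, to leave the blood and to stay in epithelia. The leukocyte integrins join an alpha chain such as ITGAL to ITGB2 and bind ICAM ligands at the immunological synapse. ITGA4 joins ITGB1 or ITGB7 and guides cells to inflamed tissue or gut, ITGAE joins ITGB7 and binds E-cadherin on epithelium, and ITGA1 with ITGB1 binds collagen. Signals from inside the cell, carried by talin and kindlin, switch the receptors from a bent to an extended form, so transcript level is only 1 of the layers that set adhesion.

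The cells were CD8+ T cells purified from blood mononuclear cells of healthy mixed-breed dogs. All groups shared a culture of 14 to 20 days in medium with 2500 IU/mL of IL-2 and 50 µM 2-mercaptoethanol. The control group received PBS, and the exosome group received vesicles shed by CLBL-1, a dog lymphoma line of the diffuse large B cell type. A dose of 50 µg/mL is stated in the design text, whereas the sample label names 50, 100 and 200 µg/mL. Exposure is given as 48 h, but the columns of the table called pair 1 here are named 24 h and those of pair 2 are named 48 h. A pair is the control and the exosome library of 1 deposited table. The sample labels number the libraries of each group 1 and 2 and give number 1 as female and number 2 as male, but no label ties a library to a named dog. Dog, sex and the time named in the columns cannot be told apart between pairs. The groups held 2 libraries each, and every value below is 1 library. Expression is the authors' scaled read count, that is, reads per gene divided by 1 factor per library. Over the shared genes the libraries held between 9417298 and 12325953 recovered reads. Of 8 markers of CD8 T cells all had a row in every library, among them CD3D (65.4 to 221) and CD8A (286 to 488). All 4 listed markers of CD4 T cells also had a row. CD4 stood at 3.22 to 11.6 and FOXP3 at 0.863 to 3.15, whereas CD40LG stood at 25.7 to 48.8 and ICOS at 79.9 to 189.5. Of 9 monocyte and macrophage markers 1 had a row in both tables, CD68, at 0.471 to 2.17. In such bulk samples fewer cells of a type and less RNA per cell cannot be told apart.

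The main comparison asked whether lymphoma exosomes were accompanied by a difference in integrin transcripts. None of the 10 chains passed the test, against 0.744% of all genes (limma with the pair as a block, Benjamini-Hochberg adjusted p under 0.05 over 11691 genes). Among the 10 rows the unadjusted p was under 0.05 for 2, ITGB3 on the higher side and the ITGA1 row on the lower side, beside 15.9% of all genes. Adjusted p-values by limma ran from 0.0767 for ITGB3 to 0.991 for ITGAE. The median log2 difference, exosome minus control, was -0.03 over the 10 rows and -0.01 over all genes. The median size of the difference, whatever its sign, was 0.13 over the 10 rows and 0.22 over all genes. The row of ITGB3 was higher with exosomes in both pairs, as were 27.8% of all genes, and the rows of ITGB2 and ITGA1 were lower in both, as were 32.5% of all genes. The other 7 rows differed in opposite directions in the pairs, as did 39.7% of all genes, and for 5 of them both counting intervals left out 0, as for 9.33% of all genes. These counts depend on the scaling. With libraries scaled to recovered totals 3 rows had both intervals off 0 on opposite sides (ITGB1, ITGB7 and the ITGAM/ITGAX/ITGAD row), ITGB2 was lower in pair 1 only, and ITGAE was higher in both pairs by at most 0.02 (log2). A difference of more than 2-fold was seen in 1 row in pair 1 (background 11.9%) and in 1 row in pair 2 (background 6.46%), ITGB3 each time.

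**Figure D1:**
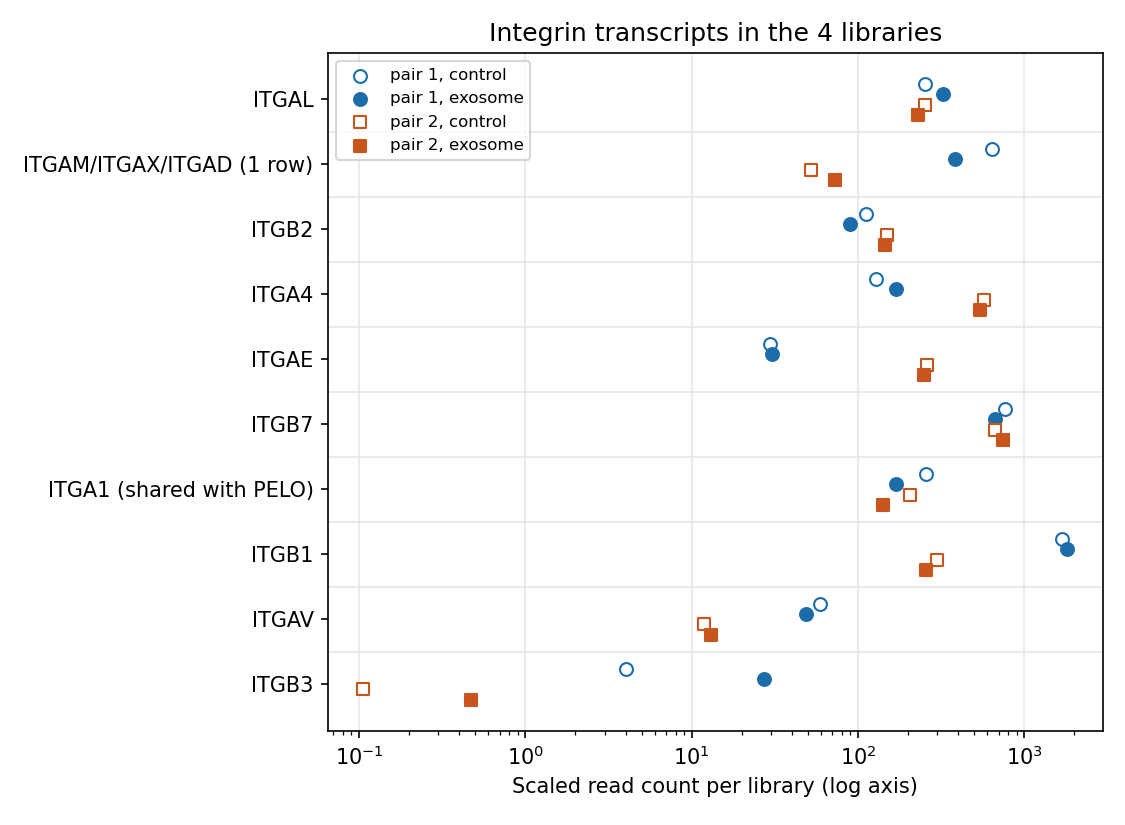
Scaled read counts of the 10 integrin rows (log axis) in each of the 4 libraries, circles for pair 1 and squares for pair 2, open for control and filled for exosome. For ITGB1, ITGA4, ITGAE, ITGAV, ITGB3 and the ITGAM/ITGAX/ITGAD row the symbols group by pair, while the rows of ITGAL, ITGB7, ITGB2 and ITGA1 lie close together in all libraries.

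Among the leukocyte integrins, ITGAL (ENSCAFG00000016603), the alpha chain of LFA-1, stood at 252 without and 324 with exosomes in pair 1, and at 252 without and 231 with exosomes in pair 2. Only the exosome library of pair 1 lay apart, and the controls of the pairs had the same rounded value. Within pair 1 the log2 ratio of exosome over control was 0.36 (95% counting interval 0.29 to 0.43), and within pair 2 it was -0.12 (-0.20 to -0.05), or -0.05 (-0.13 to 0.03) when scaled to recovered totals. These intervals cover counting error only, because each arm of a pair is 1 library. Over both pairs the log2 difference was 0.12 ± 0.24 (SE) with a limma adjusted p of 0.876. The SE is limma's moderated one, which borrows from the variances of other genes and is not the spread of the 2 pairs.

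ITGB2 (ENSCAFG00000011039), the shared beta chain of the leukocyte integrins, stood at 112 without and 89.2 with exosomes in pair 1 and at 149 without and 146 with exosomes in pair 2. Both libraries of pair 2 lay above both of pair 1, and the exosome library was the lower one in each pair at the authors' scaling. The ratio lay outside counting error in pair 1 (log2 -0.33, interval -0.45 to -0.21) but not in pair 2 (-0.02, -0.12 to 0.08), where the sign turned when scaled to recovered totals (0.06). The log2 difference over both pairs was -0.17 ± 0.23 (limma adjusted p = 0.800).

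The row ENSCAFG00000016881 carried the symbols ITGAM, ITGAX and ITGAD, and which of these genes its reads came from is not known. The genes lie close together in the reference table of the assembly UU_Cfam_GSD_1.0, with 1 other protein coding gene between ITGAD and ITGAX. These alpha chains, also called CD11b, CD11c and CD11d, join ITGB2 on myeloid cells and on some cytotoxic lymphocytes, and in dogs the last of them is known from T cells of the spleen and from large granular lymphocytes. The row stood at 639.7 without and 383 with exosomes in pair 1 and at 52.5 without and 72.8 with exosomes in pair 2. All of pair 1 lay above all of pair 2, and the direction with exosomes was opposite. Within pair 1 the log2 ratio was -0.74 (-0.80 to -0.69) and within pair 2 it was 0.47 (0.31 to 0.63). The log2 difference over both pairs was -0.14 ± 0.29 (limma adjusted p = 0.880). In the authors' deposited table of pair 1 this row passed their filter, with a log2 fold change of -0.74 and an adjusted p of 4.14e-15, values that compare 1 library with 1. In all, 3 of the 10 rows passed the authors' filter in pair 1 (background 11.7%), the others being ITGB3 and the ITGA1 row, and 0 passed it in pair 2 (background 4.94%). That filter was a fold of at least 1.5 and an unadjusted p under 0.05.

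Among markers of cells that could carry these alpha chains, monocyte and macrophage markers had 1 row of 9 (CD68, 0.471 to 2.17), as given above. Dendritic cell markers had rows for 4 of 7, with summed values of 42.0 and 50.7 in pair 1 against 91.0 and 104 in pair 2. Of these, ZBTB46 was higher in pair 1 (33.8 and 20.7, then 1.91 and 2.67 in pair 2), whereas XCR1 (1.02 and 1.08, then 2.65 and 3.54) and CCR7 (3.69 and 5.33, then 86.3 and 96.9) were higher in pair 2. The row of FLT3, shared with URAD, was higher in pair 1 and in the exosome library of each pair (3.45 and 23.6, then 0.106 and 0.708). NK cell markers had rows for 4 of 6, with sums of 466 and 772 in pair 1 against 247 and 228 in pair 2. Their members went apart, with KLRD1 (213 and 666, then 85.0 and 124) higher in the exosome library of each pair and KLRB1 (173 and 85.5, then 19.6 and 9.99) lower. NCR1 (33.2 and 10.6, then 42.6 and 32.8) and NCR3 (46.9 and 9.96, then 100.0 and 61.7) were also lower with exosomes each time, and both were higher in pair 2. Neutrophil markers had 1 row of 8, shared by S100A8 with S100A6, at 151 and 96.6 in pair 1 against 53.8 and 40.3 in pair 2. The part of such cells in the integrin row was not tested.

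ITGA4 (ENSCAFG00000014175), the alpha chain of VLA-4 and of the gut homing receptor, stood at 129 without and 169 with exosomes in pair 1 and at 575 without and 539 with exosomes in pair 2. Pair 2 was higher throughout, and the exosome library was the higher one in pair 1 and the lower one in pair 2. The log2 ratio was 0.39 (0.29 to 0.49) in pair 1 and -0.09 (-0.15 to -0.04) in pair 2, the latter being -0.02 (-0.07 to 0.04) when scaled to recovered totals. With both pairs the log2 difference was 0.15 ± 0.24 (limma adjusted p = 0.843).

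ITGAE (ENSCAFG00000019367), also known as CD103, a chain of T cells that stay in epithelia, stood at 29.6 without and 30.4 with exosomes in pair 1 and at 259.9 without and 250.5 with exosomes in pair 2. The libraries of a pair nearly coincided, and the pairs lay far apart. Within pair 1 the log2 ratio was 0.04 (-0.18 to 0.26) and within pair 2 it was -0.05 (-0.13 to 0.02). The log2 difference was -0.01 ± 0.23 (limma adjusted p = 0.991), and its sign turned when values were scaled to recovered totals (0.01).

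ITGB7 (ENSCAFG00000007065), the partner of both ITGAE and ITGA4, stood at 765 without and 669.8 with exosomes in pair 1 and at 668 without and 741 with exosomes in pair 2. The 4 libraries overlapped, with the lowest and highest values in the controls. The log2 ratio was -0.19 (-0.24 to -0.15) in pair 1 and 0.15 (0.10 to 0.20) in pair 2, so the deep counts of this gene (6289 to 9753 reads per library) gave narrow intervals on opposite sides of 0. The log2 difference over both pairs was -0.02 ± 0.23 (limma adjusted p = 0.982).

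ITGB1 (ENSCAFG00000003821), the beta chain of the collagen, fibronectin and laminin receptors, stood at 1680.0 without and 1814 with exosomes in pair 1 and at 297 without and 257 with exosomes in pair 2. Pair 1 was higher throughout, and the exosome library was the higher one in pair 1 and the lower one in pair 2. The log2 ratio was 0.11 (0.08 to 0.14) in pair 1 and -0.21 (-0.28 to -0.13) in pair 2, and the log2 difference over both was -0.05 ± 0.23 (limma adjusted p = 0.957).

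The row ENSCAFG00000018439 held ITGA1, the alpha chain of the collagen receptor VLA-1 found on tissue-resident T cells, together with PELO, a ribosome rescue factor whose gene lies within the span of ITGA1 in the reference table. It stood at 255 without and 169 with exosomes in pair 1 and at 205 without and 142 with exosomes in pair 2. Both exosome libraries lay below both controls. The log2 ratio was -0.60 (-0.68 to -0.51) in pair 1 and -0.53 (-0.62 to -0.43) in pair 2, or 0.661 of the control value in pair 1. The log2 difference was -0.56 ± 0.23, which did not pass after adjustment (limma adjusted p = 0.250). Which of the genes on the row carried the difference was not tested.

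ITGAV (ENSCAFG00000014597), the alpha chain of vitronectin receptors that also release active TGF-beta, stood at 59.1 without and 48.4 with exosomes in pair 1 and at 11.9 without and 13.0 with exosomes in pair 2. Pair 1 was higher throughout. The log2 ratio was -0.29 (-0.45 to -0.12) in pair 1 and 0.13 (-0.23 to 0.49) in pair 2, and the log2 difference was -0.08 ± 0.24 (limma adjusted p = 0.919).

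ITGB3 (ENSCAFG00000013735), the partner of ITGAV and, in platelets, of ITGA2B, showed the largest ratio of the 10 rows with exosomes. It stood at 4.0 without and 27.1 with exosomes in pair 1, from 51 and 275 reads, and at 0.106 without and 0.472 with exosomes in pair 2, from 1 and 6 reads. The exosome library of pair 1 lay apart from the other 3. The ratio was 6.78-fold in pair 1 (log2 2.76, interval 2.32 to 3.22), while in pair 2 the log2 ratio of 2.15 had an interval of -0.89 to 7.68. The log2 difference on the log2(value + 1) scale, which understates the change of low genes, was 1.45 ± 0.37 and did not pass (limma adjusted p = 0.0767). DESeq2 on the recovered reads called it (log2 2.68 ± 0.66, adjusted p = 0.00651), and so did limma with a pseudocount of 5 (adjusted p = 0.0187). Without the exosome library of pair 1 the difference was -0.68 (limma without the block). That fit mixes the higher level of pair 1 into the treatment by construction, so its sign cannot be read as that of exosomes. Platelet markers had rows for 2 of 8, with sums of 2.04 and 1.78 in pair 1 against 3.61 and 6.53 in pair 2. Their members were ITGA2B (1.96 and 1.68, then 1.38 and 2.60) and SELP (0.0785 and 0.0986, then 2.23 and 3.93). The FLT3/URAD row given above, from the dendritic cell markers, followed the same order of libraries as ITGB3, and CD68 stood at 0.471 and 2.17 in pair 1 and then 0.849 and 1.02. The part of such cells in the ITGB3 difference was not tested.

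**Figure D2:**
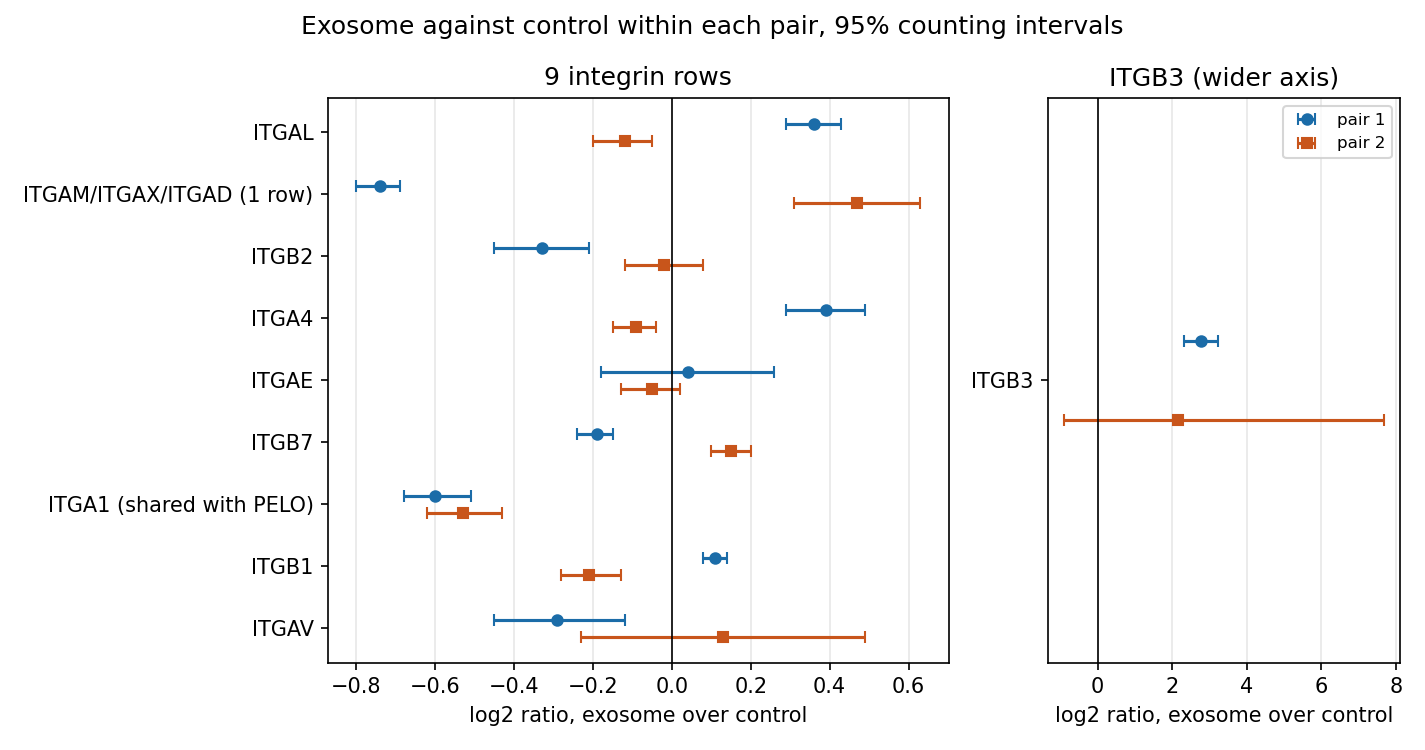
Log2 ratio of exosome over control scaled counts within pair 1 (circles) and pair 2 (squares) for each integrin row, with 95% exact counting intervals as bars. The ITGA1 row lies below 0 in both pairs, the ITGAM/ITGAX/ITGAD row lies at -0.74 and 0.47, and ITGB3, on its own wider axis, lies at 2.76 in pair 1 with a wide interval in pair 2.

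By median size the integrin rows differed more between the pairs than with exosomes, but this did not hold for each row. The ITGA1 row differed by -0.56 with exosomes and by -0.28 between pairs, and ITGB7 by -0.02 and -0.03 (log2). The pair term of the same limma fit, read after these values had been seen, called 6 of the 10 rows, against 25.3% of all genes. The median size of the log2 difference between pairs was 1.96 over the 10 rows and 0.35 over all genes. Other lists described below also differed between pairs. The pair term called 4 of 8 other integrin rows (median size 0.64) and 6 of 9 rows of integrin ligands (1.08). It called 8 of 15 adhesion and homing receptors (1.02), but 5 of 30 genes of integrin activation (0.22). A pair may differ from the other in dog, sex or time, and these p-values measure the spread among the libraries at hand, with 2 per pair, and not among dogs.

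Higher in pair 2 were ITGAE, 8.51-fold in summed scaled counts (log2 difference 3.05 ± 0.23, limma adjusted p = 8.61e-07), and ITGA4, 3.73-fold (1.90 ± 0.24, adjusted p = 6.87e-05 by limma). Higher in pair 1 were ITGB1, 6.31-fold (log2 difference, pair 2 minus pair 1, -2.66 ± 0.23, limma adjusted p = 3.26e-06), and the ITGAM/ITGAX/ITGAD row, 8.15-fold (-2.98 ± 0.29, limma adjusted p = 6.91e-06). ITGAV was 4.32-fold higher in pair 1 (-2.02 ± 0.24, limma adjusted p = 3.72e-05). ITGB3 was also higher in pair 1 (-3.22 ± 0.37, limma adjusted p = 3.68e-05), but was lost as a call when pair 2 lacked its control library (adjusted p = 0.158) or its exosome library (0.108). The rows of ITGB2 (0.56 ± 0.23, limma adjusted p = 0.103), ITGAL (adjusted p = 0.520), ITGA1 (0.425) and ITGB7 (0.957) did not pass.

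**Figure D3:**
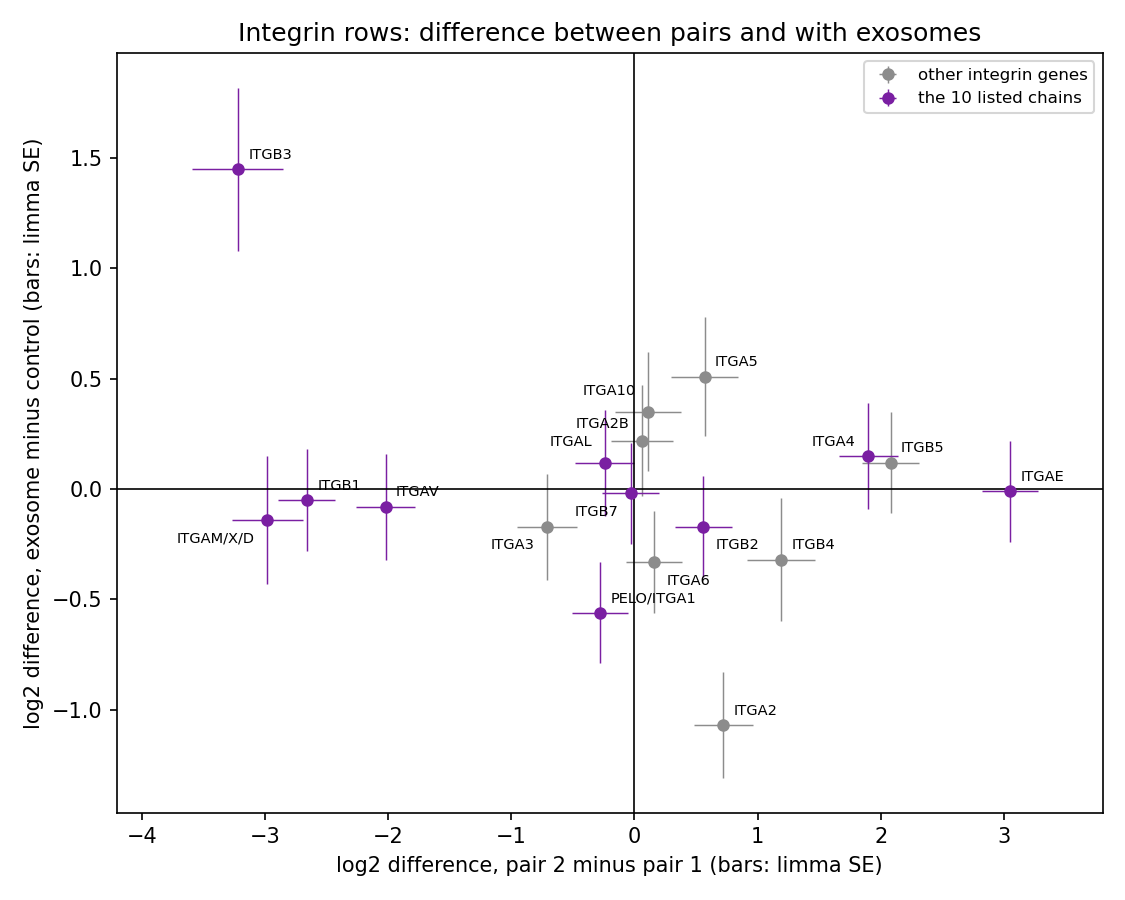
Log2 difference between pairs (horizontal, pair 2 minus pair 1) and with exosomes (vertical, exosome minus control) for the 10 listed rows and 8 other integrin rows, with limma SEs as bars. ITGAE and ITGA4 lie to the right, ITGB1, ITGAV, ITGB3 and the ITGAM/ITGAX/ITGAD row to the left, and most rows lie near 0 on the vertical axis, with ITGB3 highest at 1.45 and ITGA2 lowest at -1.07.

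The balance of chains that are known to join was set beside this, as the log2 ratio of alpha to beta chain in each library. Gene lengths were not used, so the ratio itself is no stoichiometry and only its difference between libraries is read. The ratio of ITGA4 to ITGB1 was -3.70 without and -3.42 with exosomes in pair 1, against 0.95 and 1.07 in pair 2, a 23.8-fold difference between pairs. The ratio of ITGAE to ITGB7 was -4.69 and -4.46 in pair 1, against -1.36 and -1.56 in pair 2. That difference between pairs, 8.67-fold, came with ITGB7 at nearly the same level in both pairs.

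The ratio of ITGA4 to ITGB7 was -2.57 and -1.99 in pair 1, against -0.22 and -0.46 in pair 2. The ratio of ITGAV to ITGB1 moved little, from -4.83 and -5.23 to -4.64 and -4.31, as both chains were higher in pair 1. With exosomes the ratio of ITGAL to ITGB2 differed by 0.69 in pair 1 and by -0.10 in pair 2. The ratio of ITGAV to ITGB3 differed by -3.05 and -2.03, the second value resting on 1 and 6 reads of ITGB3.

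**Figure D4:**
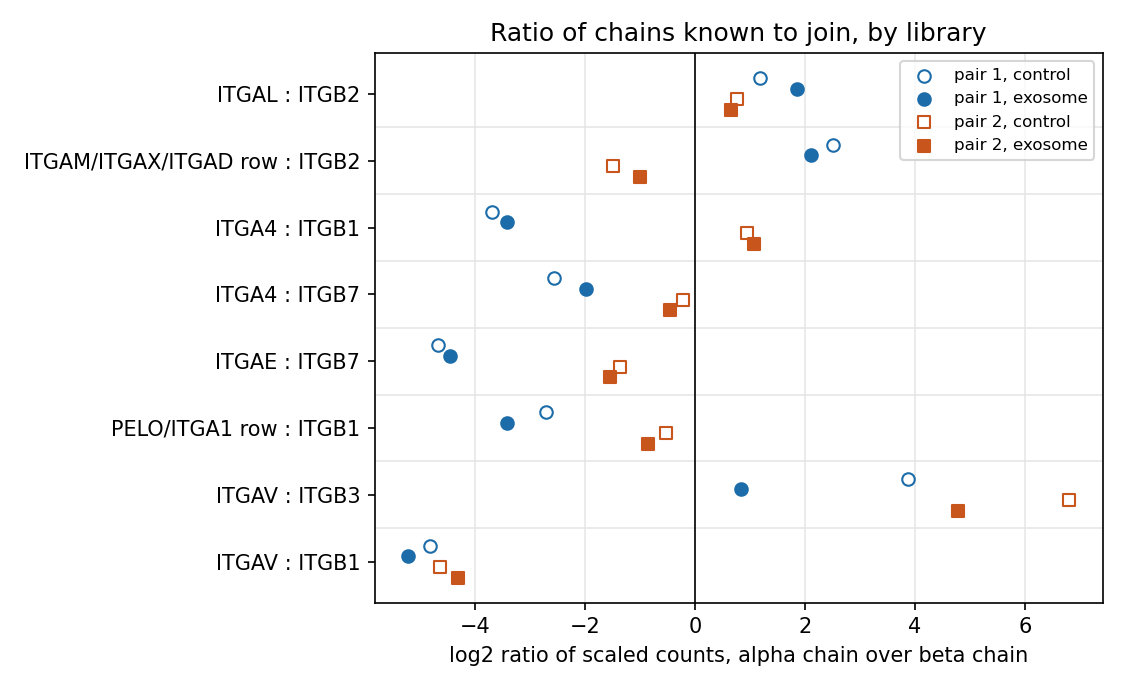
Log2 ratio of scaled counts, alpha over beta chain, for 8 pairs of chains known to join in the 4 libraries, circles for pair 1 and squares for pair 2, open for control and filled for exosome. The ratio of ITGA4 to ITGB1 lies at -3.70 and -3.42 in pair 1, against 0.95 and 1.07 in pair 2, while that of ITGAV to ITGB1 lies between -5.23 and -4.31 in all libraries.

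Of 16 other integrin genes, 8 had a row of their own in both tables and none passed the test for exosomes (smallest limma adjusted p = 0.0565). At an unadjusted p under 0.05 limma, edgeR, limma-voom and DESeq2 each passed 1 of the 8 (by limma 15.9% of all genes did), and after adjustment 0. ITGA2, the alpha chain of the collagen receptor VLA-2, stood at 9.34 and 3.06 (without and with exosomes) in pair 1 and at 13.1 and 7.08 in pair 2, with the exosome library lower each time (log2 difference -1.07 ± 0.24, limma adjusted p = 0.0565). It was called with a pseudocount of 5 (limma adjusted p = 0.0227). ITGA6, a laminin receptor chain, stood at 62.4 and 43.5 (without and with exosomes) in pair 1 and at 61.6 and 55.6 in pair 2 (limma adjusted p = 0.563). ITGA5, the fibronectin receptor chain, stood at 34.1 and 33.4 (without and with exosomes) in pair 1 and at 34.8 and 73.0 in pair 2, so that only the exosome library of pair 2 lay apart (limma adjusted p = 0.399). In the authors' deposited table of pair 2, ITGA5 had a log2 fold change of 1.07 and an adjusted p of 0.00169. ITGA10, another collagen receptor chain, stood at 11.2 and 9.96 (without and with exosomes) in pair 1 and at 8.28 and 15.9 in pair 2. ITGA3 stood at 1.17 to 3.30, and ITGB5 at 0.157 and 0.0986 in pair 1 against 3.29 and 4.33 in pair 2.

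Genes that switch integrins on and tie them to the cytoskeleton had rows for 30 of 37 listed symbols, of which FYB1 and FYB name the same gene. None passed the test by limma in either direction (1 at an unadjusted p under 0.05, beside that 15.9%), nor by edgeR, limma-voom or DESeq2. By sign, 4 were higher (13.3%) and 11 lower (36.7%) in both pairs, beside 27.8% and 32.5% of all genes. The median log2 difference was -0.12, beside -0.01 over all genes. TLN1, talin, stood at 1648 and 1136 (without and with exosomes) in pair 1 and at 1399 and 1419 in pair 2, and FERMT3, the kindlin of blood cells, at 252 and 301 and then 223 and 252. RASGRP2, the exchange factor that activates RAP1, stood at 62.9 and 28.3 (without and with exosomes) in pair 1 and at 122 and 109 in pair 2 (log2 difference -0.64 ± 0.27, limma adjusted p = 0.261). FYB1, an adaptor that links the T cell receptor to integrins, stood at 561 and 319.8 (without and with exosomes) in pair 1 and at 693 and 601 in pair 2 (limma adjusted p = 0.338). RSU1, a partner of the ILK complex, stood at 157 and 133 and then 120.3 and 75.0 (limma adjusted p = 0.374), and RAP1GAP2, which turns RAP1 off, at 3.61 and 5.42 and then 30.3 and 38.1 (0.434). TLN1 and FERMT3 were named after their values had been seen. Between the pairs 5 of these 30 genes were called, beside the 25.3% of all genes and the 6 of 10 integrin rows.

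Of 31 listed ligands 9 had a row, 2 of them shared with another gene, and none passed by limma (2 at an unadjusted p under 0.05, beside that 15.9%), edgeR, limma-voom or DESeq2. CDH1, E-cadherin, the ligand of ITGAE with ITGB7, stood at 0.314 and 0.0986 (without and with exosomes) in pair 1, near the counting limit. In pair 2 it stood at 27.2 and 13.5. Its log2 difference with exosomes was -0.61 ± 0.25 (limma adjusted p = 0.251). ITGAE was also higher in pair 2, but a link between the genes was not tested. THBS1, a matrix protein bound by several integrins, stood at 1.33 and 0.592 (without and with exosomes) in pair 1 and at 3.18 and 1.57 in pair 2 (limma adjusted p = 0.200), and LAMC1, a laminin chain, at 20.6 and 12.2 and then 46.3 and 39.1 (0.359). CD47, which binds ITGAV with ITGB3 in cis, stood at 228 and 336 (without and with exosomes) in pair 1 and at 222 and 259 in pair 2 (limma adjusted p = 0.463). ICAM1, the ligand of LFA-1, chosen after its values were seen, stood at 15.6 and 9.17 and then 27.4 and 25.6.

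Of 21 listed symbols for receptors of T cell adhesion and homing 15 had a row. Among the symbols, SELPLG and PSGL1 name the same gene. By limma none passed (3 at an unadjusted p under 0.05, beside 15.9% of all genes), and edgeR, limma-voom and DESeq2 also called 0. By sign, 5 were higher (33.3%) and 2 lower (13.3%) in both pairs, beside 27.8% and 32.5% of all genes. The median log2 difference was 0.11, beside -0.01 over all genes. CXCR3, a chemokine receptor of effector cells, stood at 76.7 and 28.3 (without and with exosomes) in pair 1 and at 55.6 and 43.1 in pair 2 (log2 difference -0.88 ± 0.27, limma adjusted p = 0.125), and was called with a pseudocount of 5 (limma adjusted p = 0.0176) and among genes with a mean of at least 10 (0.0116). CXCR6, a receptor of tissue-resident T cells, stood at 149 and 264 and then 117 and 139 (limma adjusted p = 0.305). S1PR5, which guides exit from tissue, stood at 1.18 and 1.68 and then 0.106 and 1.10 (limma adjusted p = 0.242). The values of S1PR5 rest on 15 and 17 reads in pair 1 and on 1 and 14 reads in pair 2, near the counting limit. ALCAM, the ligand of CD6, stood at 23.4 and 48.6 and then 31.4 and 30.4, so that only the exosome library of pair 1 lay apart (limma adjusted p = 0.422).

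Between pairs, 8 of these 15 receptors were called, beside 25.3% of all genes, 4 higher in pair 2 and 4 higher in pair 1. CCR7, a lymph node homing receptor, stood at 3.69 and 5.33 (without and with exosomes) in pair 1 and at 86.3 and 96.9 in pair 2, and CD6, a T cell adhesion receptor, at 15.0 and 14.3 and then 438 and 533. CD2 and CD226 were also higher in pair 2. Higher in pair 1 were CD96 (987 and 1042, then 342 and 321) and SELPLG (251 and 327, then 148 and 135). So were GPR183 (44.7 and 108, then 15.7 and 7.08) and PECAM1 (3.61 and 4.24, then 0.849 and 0.786). Of the CD8 T cell markers, CD8B stood at 73.4 and 72.7 (without and with exosomes) in pair 1 and at 479 and 528 in pair 2. CD8A lay closer, and ZAP70 was higher in pair 1 (473 and 498, then 310.0 and 341). The genes of this paragraph were chosen after their values were seen. The part of cell makeup in the integrin differences between pairs was not tested.

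Genes with the most similar pattern over the 4 libraries were sought among 6610 genes with a single symbol and a mean scaled count of at least 20, by the root mean square distance of centred log2 values. For ITGAL they were USP34 (distance 0.009; 409 and 519 in pair 1, 408 and 376 in pair 2) and BIRC2 (0.016). For ITGA4 they were DENND2D (0.105; 37.0 and 40.1, then 146 and 149.7) and FGFR1OP (0.131). For ITGAE they were BST2 (0.077; 35.1 and 32.0, then 313 and 297) and SPOCK2 (0.102). The measure rests on 4 libraries, so the names are a description.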

How the data were processed

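Messenger RNA libraries of 2 control and 2 exosome cultures were analysed. The submitters' processing notes name the build CanFam3.1, the aligner HISAT2 2.1.0, the counter featureCounts 1.6.0 and the trimmer Trimmomatic 0.38. Use of strand is not given in the sources used here. The authors, per the file headers and log, reduced 30951 genes to 11838, removed 89 and 58 as outliers and compared 1 library with 1 by DEGseq. Their log also lists the 48 h library against the 24 h library within each group, with 78 outliers each time. As deposited, each library column is a signal: reads per gene over 1 scaling factor. The mean column of the authors is a score, their log2 fold changes are exosome over control, and their p-values compare libraries, not conditions.

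Divided by the smallest value of its column, every value (100%) came out whole within 0.001, which gave back the reads. Columns name a time that the labels do not. They were assigned to control or exosome and to the pair of their table, but not to a single labelled sample. The pair (table) was the block because the labels number 1 control and 1 treated library alike, with the same sex, and the authors compared within tables. They also compared across the pairs, by the time named in the columns. Deviations of the libraries of a pair correlated at 0.8182 across genes, equal for both pairs by construction. limma 3.58.1 in R 4.3.3 on log2(value + 1) gave the main result, with 1 residual and 11.4 prior degrees of freedom and no filter on low values. edgeR 4.0.16, limma-voom and DESeq2 1.42.0 on recovered reads were alternatives. A difference between the pairs in their response has 0 residual degrees of freedom and was not tested. Counting intervals are exact (Clopper-Pearson, 95%). Named genes were the 10 chains, up to 6 other integrins, called first and then by mean, up to 4 genes per further list, called first and then by smallest p, and the 2 nearest patterns for ITGAL, ITGA4 and ITGAE; others are marked. The list of adhesion and homing receptors leaves out 1 gene, which is not reported here. Members and lists were chosen with earlier results of these data known. Scripts were tested on simulated data. The reference table of UU_Cfam_GSD_1.0 matched all 10 rows by gene number and served for names and neighbours only.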

Additional observations from a re-analysis of the deposited data

Results flagged for a closer look

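Of the 10 integrin rows, 5 differed with exosomes in opposite directions in the pairs, with both counting intervals leaving out 0, as did 9.33% of all genes (a share that depends on depth, since low genes have wide intervals). Each pair is 1 library an arm, and the difference between the pairs was not tested. The log2 ratio, exosome over control, was 0.39 in pair 1 and -0.09 in pair 2 for ITGA4, 0.36 and -0.12 for ITGAL, 0.11 and -0.21 for ITGB1, and -0.19 and 0.15 for ITGB7. For the ITGAM/ITGAX/ITGAD row it was -0.74 in pair 1 and 0.47 in pair 2. With libraries scaled to recovered totals 3 of the 5 still had both intervals off 0, while the pair 2 values of ITGA4 (-0.02, interval -0.07 to 0.04) and ITGAL (-0.05, -0.13 to 0.03) did not.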

How the results depend on the processing

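The number of integrin rows called with exosomes was 0 in the limma fit with the replicate block and 1, ITGB3, with a pseudocount of 5 or by DESeq2. It was 0 in the other alternatives, that is a pseudocount of 0.1, the filter on a mean of at least 10 (which leaves out ITGB3), values scaled to recovered totals, edgeR with either scaling, limma-voom (added after seeing the data), no replicate block, and each library left out. At an unadjusted p under 0.05, 2 rows passed by limma, by edgeR, by limma-voom and by DESeq2. Over all genes 29 were called higher and 58 lower. These counts became 202 and 408 with a pseudocount of 5, 211 and 445 with the filter, 62 and 107 by DESeq2 and 7 and 7 by edgeR with RLE factors. They were 0 and 0 with a pseudocount of 0.1, with recovered totals, by edgeR with TMM, by limma-voom, with the pair block left out (0 and 0) and with each library left out (0 to 0). The causes were not tested. Scaling to recovered totals shifted the median of all genes by 0.0203 (log2).

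ITGAE, at -0.01, turned to 0.01 with recovered totals and 0.00 by edgeR with RLE and by DESeq2. With 1 library left out (limma without the block, where a lone library is assumed to vary like the others), log2 differences ranged from -0.93 to 1.22 for ITGA4, -1.55 to 1.54 for ITGAE, -0.12 to 0.36 for ITGAL, -1.19 to 1.03 for ITGAV, -1.46 to 1.36 for ITGB1, -0.53 to 0.18 for ITGB2, -0.68 to 3.58 for ITGB3, -0.12 to 0.08 for ITGB7 and -1.93 to 1.65 for the ITGAM/ITGAX/ITGAD row. They kept their sign for the ITGA1 row (-0.72 to -0.40). Other signs that turned were those of ITGA3 (-0.66 to 0.33), ITGA5 (-0.04 to 1.06), ITGB4 (-1.19 to 0.55), ITGB5 (-1.02 to 1.26), RASGRP2 (-1.59 to 0.32), RAP1GAP2 (-0.98 to 1.78), CDH1 (-2.82 to 1.6) and LAMC1 (-1.27 to 0.33). Such fits mix the pair difference into the treatment by construction.

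The count of rows called between pairs was 6, and 5 to 7 in the alternatives. The differences that turned sign were those of the ITGA1 row (-0.58 to 0.01) and ITGB7 (-0.12 to 0.07), neither of them called. With 1 and 6 reads in pair 2, depth limits what can be said of ITGB3 there. Within the pairs, scaling to recovered totals (counts added after seeing the data) took the rows in opposite directions with both intervals off 0 from 5 to 3, the rows lower in both pairs from 2 to 1 and those higher in both from 1 to 2. Of the 20 within-pair values 5 moved outside their interval.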
